A study of Danio rerio with 12 samples.

Results

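Genes for the synthesis of fatty acids and triglycerides were examined in the livers of adult zebrafish with and without a knockout of glyoxalase 2. The 36 members were listed by name: lipogenic enzymes, elongases, desaturases, acyltransferases and the factors that control them. Of these, 35 matched the tables, 28 by their zebrafish symbol and 7 after the copy letter was dropped, and 1, fads2, was not matched. Because some symbols are shared by several genes, the 35 names covered 38 of the 32520 genes quantified. The name table does not tell which ELOVL1 gene is elovl1a or elovl1b, nor which DGAT1 gene is dgat1a or dgat1b, so such genes are given with their Ensembl identifier. Dropping the letter gave a single gene for mid1ip1b (MID1IP1, ENSDARG00000019302) and for elovl7a (ELOVL7, ENSDARG00000069279), a symbol that would match elovl7b as well.

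Bulk RNA was sequenced from 6 libraries of whole liver of fish homozygous for a CRISPR knockout of glyoxalase 2 (glo2-/-) and from 6 libraries of glo2+/+ fish. Both genotypes carried the Tg(fli1:EGFP) transgene, which marks endothelial cells with green fluorescent protein, and all fish were labelled as not trained. The labels give neither age beyond adult, nor sex, nor feeding state, nor what the allele removes, and whether every library stands for its own fish is not stated. The p-values therefore describe the spread among these libraries, and some of that spread may be technical.

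Fatty acid synthesis begins in the cytosol with citrate, which the carrier Slc25a1 exports from mitochondria and ATP citrate lyase splits into acetyl-CoA. Acetyl-CoA carboxylase and fatty acid synthase build palmitate from it with NADPH, after which elongases and desaturases lengthen and desaturate the chain. Acyltransferases, lipins and Dgat enzymes then join the chains to glycerol, and the liver stores the triglyceride in droplets or exports it. In mammals the transcription factors SREBP-1 and ChREBP raise these genes after feeding, so their levels in liver are known to vary with nutrition.

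Each library held between 17433960 and 18465485 estimated counts. The median Spearman correlation between libraries was 0.947 within glo2-/-, 0.934 within glo2+/+ and 0.941 between the genotypes. The targeted gene, HAGH (hagh), had a lowest, median and highest level of 76.1, 82.1 and 88.1 CPM (counts per 1000000, scaled with TMM factors) in glo2-/- livers, against 91.6, 91.9 and 105.1 CPM in glo2+/+ livers. The groups did not overlap on this scale, but the difference did not pass the threshold (log2 fold change -0.22, SE 0.09, edgeR adjusted p = 0.819), and in the deposited TPM the ranges overlapped, with 44.5 to 63.4 in glo2-/- and 46.3 to 69.8 in glo2+/+ livers. Of 13 hepatocyte marker genes all 13 were present, with a summed level of 255000 to 358000 TPM in glo2-/- and 267000 to 358000 TPM in glo2+/+ livers.

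No synthesis gene passed the threshold between the genotypes. Of the 38 genes, 33 had enough counts to be tested, and 0 of them reached an adjusted p under 0.05 in edgeR's quasi-likelihood test, where the smallest edgeR adjusted p of a member was 0.819. Across all 14509 tested genes, 1 passed (0.00689%). DESeq2 called 10 genes higher and 24 lower, but 0 members, with a smallest DESeq2 adjusted p of 0.565 among them. At an unadjusted edgeR p under 0.05 stood 3 members, gpam, plin2 and ACLY (ENSDARG00000099079), which is 9.09% of the 33 tested against 5.88% of all tested genes. The members' fold changes were 17 above 0 and 16 below it, with a median log2 fold change of 0.02 against -0.015 for all tested genes, and 11 of the 33 signs turned under at least 1 alternative setting. Leaving out 1 library moved the log2 fold change by over 1.5 times in 29 of the 33, the exceptions being gpam, plin2, ACLY (ENSDARG00000055652) and DGAT1 (ENSDARG00000103503). A fold change near 0 easily moves by such a factor. No share over all tested genes is given for the turned signs or for these moves. Without overlap between the genotypes stood 0 members, against 0.248% of all tested genes.

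**Figure D1:**
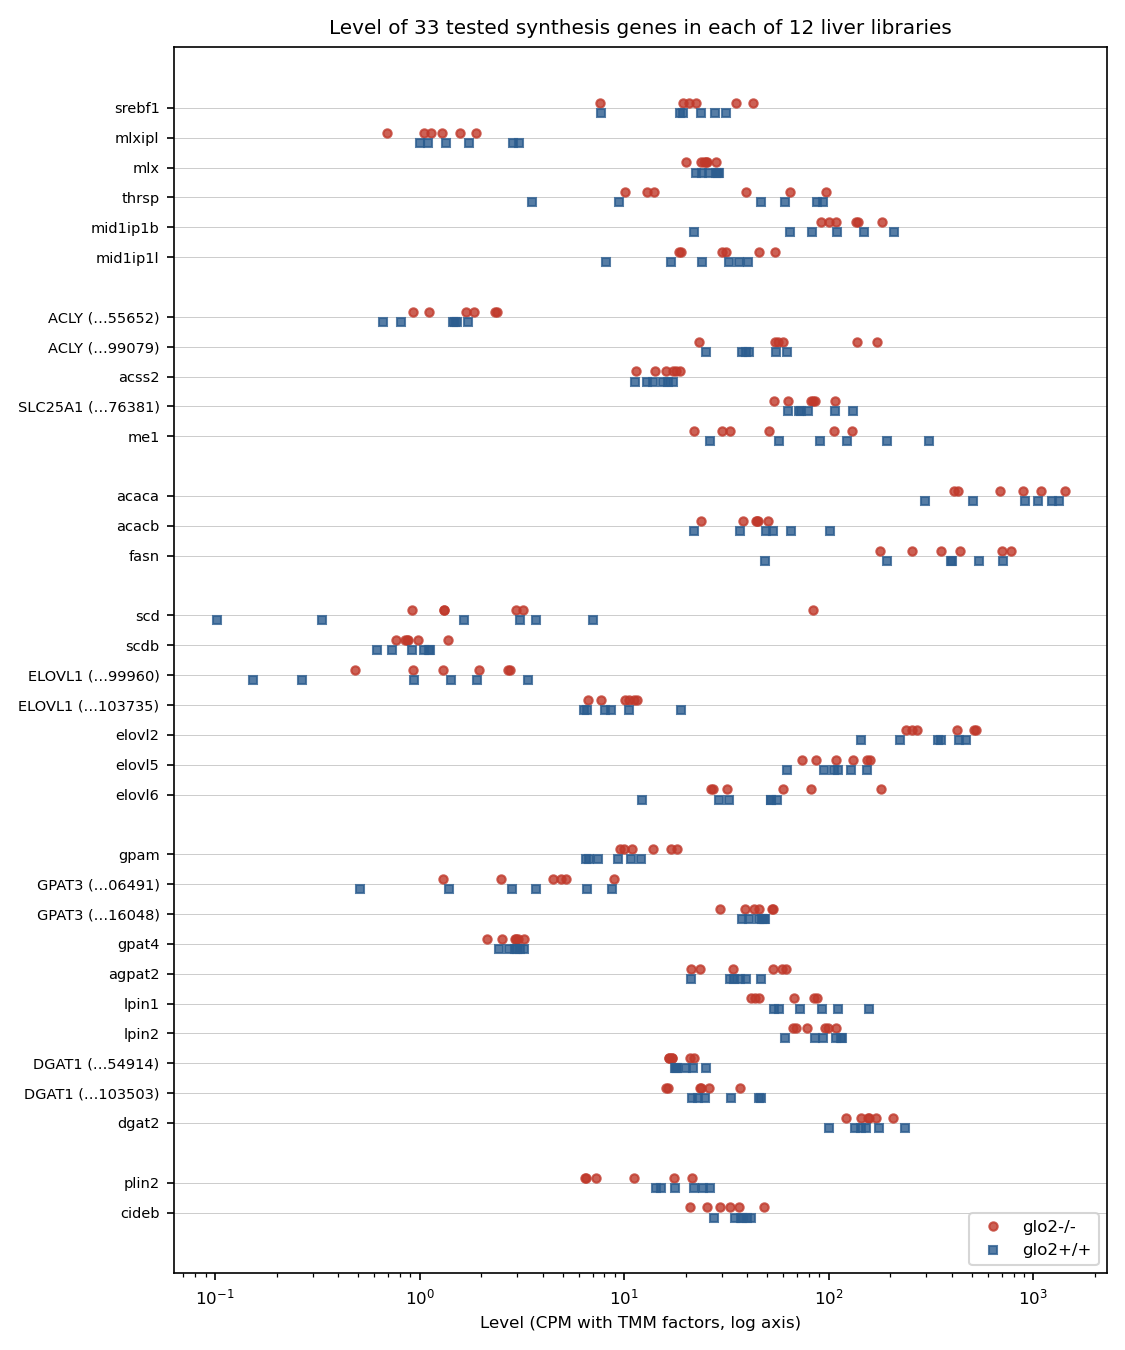
Level of each of the 33 tested genes, in CPM scaled with TMM factors on a log axis, in 6 glo2-/- libraries (red circles) and 6 glo2+/+ libraries (blue squares), grouped by role from regulators at the top to droplet proteins at the bottom. The genotypes overlap for every gene shown. Both thrsp and me1 are spread widely within both genotypes. In glo2-/- the spread of scd comes mainly from replicate 2, and for fasn glo2+/+ replicate 3 lies apart at the low end.

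**Figure D2:**
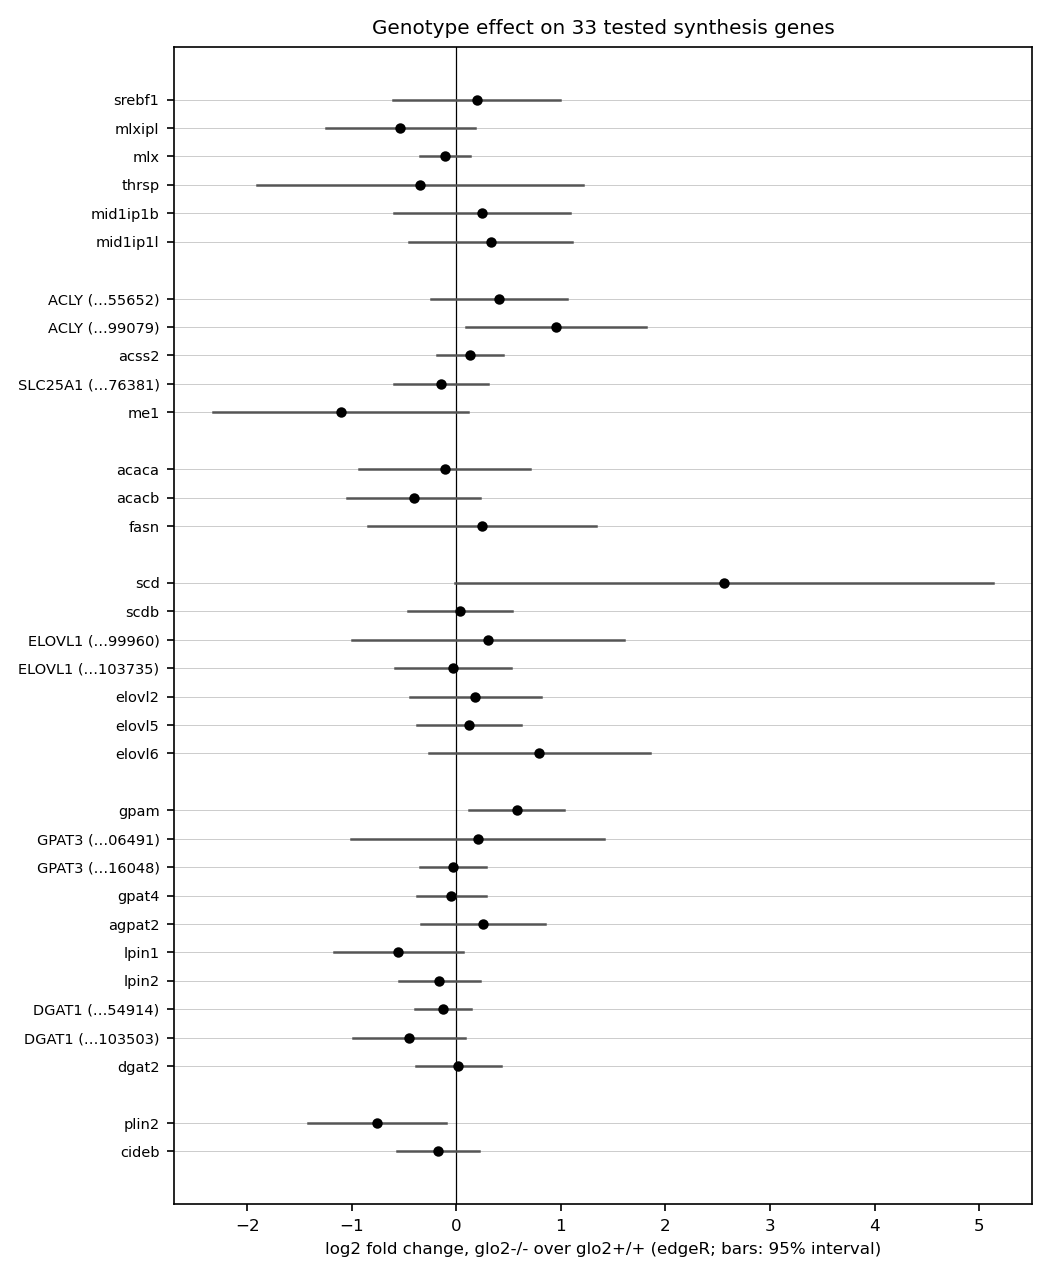
Fitted log2 fold change, glo2-/- over glo2+/+, of each of the 33 tested genes (edgeR), with its 95% interval and a line at 0. The intervals of ACLY (ENSDARG00000099079), gpam and plin2 lie off 0 before adjustment, and that of scd is the widest.

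Levels set side by side between genes are given in TPM, which the authors corrected for transcript length, as the mean over all 12 libraries. The most abundant of the matched members was thrsp, at 171.6 TPM, followed by acaca at 122.3, dgat2 at 115.3, elovl2 at 99.6, mid1ip1b at 73.4, elovl5 at 68.0 and me1 at 62.0 TPM. These were the 7 matched members with a mean of at least 50 TPM, and fads2, which was not matched, has no place in the order. Their ranges over libraries overlapped, so neighbours in this order did not differ beyond the spread: thrsp ranged from 15.0 to 385.9 TPM and acaca from 31.5 to 204.6 TPM. Next came fasn at 44.7, SLC25A1 (ENSDARG00000076381) at 42.9, cideb at 36.4 and elovl6 at 32.1 TPM. All matched members together, thus without fads2, summed to 624, 1100 and 1600 TPM (lowest, median, highest) in glo2-/- livers and to 559, 1130 and 1420 TPM in glo2+/+ livers. The 4 most abundant held a median of 44.0% of that sum in glo2-/- and 45.0% in glo2+/+ livers.

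In what follows, levels within a gene are CPM scaled with TMM factors, given as the lowest, median and highest of the 6 libraries of a genotype. Each log2 fold change is glo2-/- over glo2+/+ from edgeR. All 33 tested members had an adjusted p of at least 0.819 in that test.

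Among the regulators, srebf1 encodes SREBP-1, which activates lipogenic genes. Its levels were 7.61, 21.5 and 42.4 CPM in glo2-/- livers, against 7.70, 21.6 and 31.5 CPM in glo2+/+ livers, a log2 fold change of 0.19 (SE 0.37). The medians nearly coincided, and each genotype held a single library near the bottom of the range, glo2-/- replicate 1 and glo2+/+ replicate 3. The gene mlxipl encodes ChREBP, the carbohydrate-sensing activator, and stood at 0.689, 1.21 and 1.88 CPM in glo2-/- livers, against 1.01, 1.54 and 3.05 CPM in glo2+/+ livers (log2 fold change -0.53, SE 0.33). The ranges overlapped, although the highest 2 libraries were glo2+/+. With 11 to 39 counts in glo2-/- and 19 to 60 counts in glo2+/+ libraries, the levels of mlxipl carry a counting error. Its partner mlx was among the steadiest members, with 20.01, 24.9 and 27.9 CPM in glo2-/- livers and 22.4, 27.1 and 29.0 CPM in glo2+/+ livers (log2 fold change -0.11, SE 0.11).

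The Spot 14 protein, encoded by thrsp, and its relatives, encoded by the mid1ip1 genes, promote fatty acid synthesis, in mammals partly through acetyl-CoA carboxylase. The gene thrsp had 10.14, 26.7 and 96.5 CPM in glo2-/- livers, against 3.56, 54.0 and 93.8 CPM in glo2+/+ livers, a log2 fold change of -0.35 (SE 0.73), which was -0.81 without glo2-/- replicate 2 and -0.072 without glo2+/+ replicate 6. Both genotypes thus held libraries at either end of its range, with the highest in glo2-/- replicate 2 and the lowest in glo2+/+ replicate 4. For mid1ip1b the levels were 91.5, 122 and 182 CPM in glo2-/- and 22.0, 96.3 and 209 CPM in glo2+/+ livers (log2 fold change 0.25, SE 0.39). For mid1ip1l they were 18.5, 30.8 and 54.4 CPM in glo2-/- and 8.1, 28.3 and 40.3 CPM in glo2+/+ livers (log2 fold change 0.33, SE 0.36). The lowest library of both genes was glo2+/+ replicate 3. Their relative mid1ip1a was close to absent, with 0 to 2 counts in glo2-/- and 1 to 3 counts in glo2+/+ libraries, and was not tested.

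Among the genes that supply substrate, the 2 matches of acly, which makes cytosolic acetyl-CoA from citrate, differed in level (means over all libraries of 14.4 and 0.404 TPM). ACLY (ENSDARG00000099079) had 23.2, 58.1 and 173 CPM in glo2-/- livers, with a mean of 84.0 ± 57.7, against 25.2, 40.1 and 62.2 CPM in glo2+/+ livers, with a mean of 43.4 ± 13.3 (SD, n = 6 each). The glo2-/- range enclosed the whole glo2+/+ range, and the high glo2-/- values came from replicates 4 and 5. The log2 fold change was 0.95 (SE 0.40, 95% interval 0.09 to 1.82, edgeR unadjusted p = 0.0331), and it was 0.616 without glo2-/- replicate 5. The other match, ACLY (ENSDARG00000055652), had a low level of 0.926, 1.76 and 2.38 CPM in glo2-/- livers and 0.664, 1.47 and 1.73 CPM in glo2+/+ livers (log2 fold change 0.41, SE 0.30).

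The gene acss2, which makes acetyl-CoA from acetate, varied little, with 11.5, 16.6 and 18.8 CPM in glo2-/- livers and 11.3, 14.7 and 17.3 CPM in glo2+/+ livers (log2 fold change 0.13, SE 0.15). The citrate carrier member slc25a1b matched SLC25A1 (ENSDARG00000076381), with 53.9, 83.0 and 108 CPM in glo2-/- and 63.0, 76.2 and 132 CPM in glo2+/+ livers (log2 fold change -0.14, SE 0.21). The remaining carrier genes were near the floor and not tested: slc25a1a had 0 to 11 counts in glo2-/- and 0 to 3 in glo2+/+ libraries, and SLC25A1 (ENSDARG00000080000) had 0 to 2 counts in glo2-/- and 0 to 3 in glo2+/+ libraries. NADPH-producing malic enzyme, me1, had 22.0, 41.9 and 129 CPM in glo2-/- livers, against 26.3, 106.5 and 308 CPM in glo2+/+ livers. The glo2-/- median lay below the glo2+/+ median, but the ranges overlapped from 26.3 to 129 CPM. The log2 fold change of me1 was -1.11 (SE 0.57, edgeR unadjusted p = 0.0721), and -0.665 without glo2+/+ replicate 5.

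At the core of the pathway, acaca encodes the acetyl-CoA carboxylase that commits carbon to fatty acids. It had 407, 792 and 1422 CPM in glo2-/- livers, against 296, 981 and 1336 CPM in glo2+/+ livers (log2 fold change -0.11, SE 0.38). Its relative acacb, whose mammalian product sits at mitochondria and restrains fatty acid oxidation, had 23.8, 44.4 and 50.7 CPM in glo2-/- livers and 22.0, 51.3 and 101 CPM in glo2+/+ livers (log2 fold change -0.41, SE 0.30). Fatty acid synthase, fasn, had 179, 396 and 782 CPM in glo2-/- livers, with a mean of 451 ± 242, against 48.7, 396 and 712 CPM in glo2+/+ livers, with a mean of 381 ± 237 (SD, n = 6 each). The medians of fasn coincided, its spread covered more than the fold change of 0.24 (log2, SE 0.51), and glo2+/+ replicate 3 alone held the low end, since the next library had 179 CPM. The log2 fold change of fasn was 0.011 without glo2+/+ replicate 3 and 0.518 without glo2+/+ replicate 2. Per unit length, acaca exceeded fasn in every library, by a TPM ratio of 1.35, 2.58 and 4.08 in glo2-/- and 2.16, 3.43 and 7.95 in glo2+/+ livers.

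Of the desaturation and elongation genes, scd encodes stearoyl-CoA desaturase, which makes monounsaturated fatty acids. It had 0.914, 2.13 and 83.9 CPM in glo2-/- livers, against 0.102, 2.36 and 7.02 CPM in glo2+/+ livers. A single library, glo2-/- replicate 2, stood apart at 83.9 CPM (1552 counts), and the next highest of all 12 libraries was glo2+/+ replicate 2 at 7.02 CPM. The fitted log2 fold change of 2.56 (SE 1.2, edgeR unadjusted p = 0.0508) rested on that library and was -0.424 without it. DESeq2 gave no adjusted p for scd. The copy scdb was low in every library, with 0.770, 0.871 and 1.38 CPM in glo2-/- livers and 0.621, 0.979 and 1.12 CPM in glo2+/+ livers (log2 fold change 0.03, SE 0.23).

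The elongases elovl2 and elovl5, which act on polyunsaturated chains, were the most abundant of the elongase members. For elovl2 the levels were 239, 347 and 523 CPM in glo2-/- and 144, 347 and 467 CPM in glo2+/+ livers (log2 fold change 0.18, SE 0.29). For elovl5 they were 73.9, 119.7 and 159 CPM in glo2-/- and 62.8, 109 and 155 CPM in glo2+/+ livers (log2 fold change 0.12, SE 0.23). Both pairs of ranges overlapped over most of their length. Elovl6 lengthens palmitate, and elovl6 had 26.5, 45.8 and 179 CPM in glo2-/- livers, against 12.2, 42.3 and 55.8 CPM in glo2+/+ livers. Its highest value again came from glo2-/- replicate 2, with 81.4 CPM in the next library, and the log2 fold change of 0.80 (SE 0.49) was 0.232 without that library.

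The members elovl1a and elovl1b, elongases of saturated and monounsaturated very long chains, matched 2 genes of unequal level (means of 6.75 and 1.14 TPM). ELOVL1 (ENSDARG00000103735) had 6.64, 10.3 and 11.6 CPM in glo2-/- and 6.34, 8.35 and 19.0 CPM in glo2+/+ livers (log2 fold change -0.03, SE 0.26). ELOVL1 (ENSDARG00000099960) had 0.481, 1.62 and 2.75 CPM in glo2-/- and 0.152, 1.18 and 3.396 CPM in glo2+/+ livers (log2 fold change 0.31, SE 0.60), with 3 to 64 counts per library, so that its lowest values carry a large counting error. The ELOVL7 gene matched by elovl7a had 8 to 19 counts in glo2-/- and 4 to 27 counts in glo2+/+ libraries and was not tested. FADS3 (ENSDARG00000019532), a fatty acid desaturase by its table name, was not matched by any member's name and was singled out after its values were seen. The tables used here do not tell whether it is the gene meant by fads2; if it is, it would lead the order of levels, with a mean of 2165 TPM. It had 2082, 3274 and 3804 CPM in glo2-/- livers, against 1976, 2601 and 5870 CPM in glo2+/+ livers (log2 fold change 0.01, SE 0.26).

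Glycerolipid assembly starts with glycerol-3-phosphate acyltransferases. The mitochondrial one, gpam, had 9.52, 12.3 and 18.03 CPM in glo2-/- livers, with a mean of 13.2 ± 3.67, against 6.52, 8.36 and 12.06 CPM in glo2+/+ livers, with a mean of 8.81 ± 2.30 (SD, n = 6 each). The glo2-/- values lay towards the upper part of the common range, with overlap between 9.52 and 12.06 CPM. The log2 fold change was 0.58 (SE 0.21, 95% interval 0.13 to 1.03, edgeR unadjusted p = 0.016, adjusted p = 0.819). The gene gpat4, for an enzyme of the endoplasmic reticulum, was steady with 2.13, 2.95 and 3.24 CPM in glo2-/- livers and 2.44, 2.95 and 3.24 CPM in glo2+/+ livers (log2 fold change -0.05, SE 0.15).

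The member gpat3 matched 2 genes, with means of 21.6 and 1.96 TPM. GPAT3 (ENSDARG00000016048) had 29.3, 44.3 and 53.1 CPM in glo2-/- livers and 37.6, 46.4 and 48.6 CPM in glo2+/+ livers (log2 fold change -0.03, SE 0.15). GPAT3 (ENSDARG00000006491) was more variable between libraries, with 1.30, 4.69 and 8.93 CPM in glo2-/- livers and 0.508, 3.27 and 8.70 CPM in glo2+/+ livers (log2 fold change 0.20, SE 0.56). The next acyl chain is added by the product of agpat2, which had 21.3, 43.7 and 61.6 CPM in glo2-/- and 21.3, 35.8 and 46.8 CPM in glo2+/+ livers (log2 fold change 0.26, SE 0.28).

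Lipins turn phosphatidate into diacylglycerol, and in mammals lipin 1 also acts in the nucleus as a co-activator. The gene lpin1 had 41.5, 56.6 and 87.3 CPM in glo2-/- livers, against 53.7, 82.4 and 158 CPM in glo2+/+ livers, a log2 fold change of -0.55 (SE 0.29, edgeR unadjusted p = 0.0745). The gene lpin2 had 66.7, 86.9 and 109 CPM in glo2-/- and 60.9, 101 and 116 CPM in glo2+/+ livers (log2 fold change -0.16, SE 0.18). The last step to triglyceride is made by Dgat enzymes, of which dgat2 had 121, 157 and 207 CPM in glo2-/- and 100.3, 148 and 235 CPM in glo2+/+ livers (log2 fold change 0.02, SE 0.19). The members dgat1a and dgat1b matched DGAT1 (ENSDARG00000054914), with 16.6, 17.1 and 21.9 CPM in glo2-/- and 17.6, 19.1 and 25.0 CPM in glo2+/+ livers, and DGAT1 (ENSDARG00000103503), with 16.0, 23.6 and 37.0 CPM in glo2-/- and 21.6, 29.0 and 46.4 CPM in glo2+/+ livers. The fitted log2 fold changes of these DGAT1 genes were -0.13 (SE 0.12) and -0.45 (SE 0.25), in that order. The gene mogat2, whose product acylates monoacylglycerol mainly in the mammalian intestine, had at most 2 counts in any library.

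Perilipin 2, encoded by plin2, coats lipid droplets. The gene had 6.45, 9.21 and 21.6 CPM in glo2-/- livers, with a mean of 11.7 ± 6.39, against 14.2, 19.8 and 26.2 CPM in glo2+/+ livers, with a mean of 19.9 ± 4.99 (SD, n = 6 each). The genotypes overlapped between 14.2 and 21.6 CPM, and the glo2-/- median lay below every glo2+/+ library. The log2 fold change was -0.76 (SE 0.31, 95% interval -1.42 to -0.10, edgeR unadjusted p = 0.0276, adjusted p = 0.819). The droplet protein gene cideb, which in mammals also takes part in lipoprotein loading, had 21.0, 31.2 and 48.2 CPM in glo2-/- and 27.6, 37.4 and 41.5 CPM in glo2+/+ livers (log2 fold change -0.18, SE 0.18).

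Spread between libraries of the same genotype was wide for several members. The within-genotype SD of log2 CPM was at least 1 for 6 of the 33 tested genes (18.2%), against 5.8% of all tested genes, and the median SD was 0.552 for the members and 0.377 for all tested genes. The 6 were scd at 2.16, thrsp at 1.66, ELOVL1 (ENSDARG00000099960) and GPAT3 (ENSDARG00000006491) at 1.2 each, me1 at 1.15 and fasn at 1.15. The highest library exceeded the lowest at least 10-fold in 7 members, these 6 and elovl6, by 27.1-fold for thrsp, 16.0-fold for fasn and 14.0-fold for me1. No share over all tested genes is given for this range. For fasn the low end was glo2+/+ replicate 3 alone, at 48.7 CPM, with 179 CPM in the next library. The SD of fasn was 0.825 within glo2-/- and 1.403 within glo2+/+. For scd the ratio of 826 compares 83.9 CPM with a library of 2 counts, whose counting error is large. By role, the median SD was 0.777 for regulators, 0.792 for the carboxylases and synthase, and 0.361 for glycerolipid assembly.

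The extreme values did not all fall in the same library. The counts that follow are of members only, with no share over all tested genes beside them. glo2+/+ replicate 3 was lowest of the 12 libraries for 7 members, among them fasn, acaca, mid1ip1b, mid1ip1l, acss2 and dgat2, and highest for 2, plin2 and DGAT1 (ENSDARG00000103503). glo2-/- replicate 2 was highest for 6 members, namely thrsp, acaca, fasn, scd, elovl6 and cideb, and lowest for 3, among them me1 and agpat2. glo2+/+ replicate 4 was highest for 6, among them mlxipl, acacb and dgat2, and lowest for 5, among them thrsp, scd and elovl2.

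Copy usage was compared as the share of summed TPM that 1 gene of a family took in each library. Families were groups of listed members with a shared name or reaction, and not all are copies of the same gene. Genes outside the members were left out of the sums, among them the ELOVL4 genes, elovl8a, elovl8b and GPAT2. Reads of near-identical copies are divided by likelihood, so these shares carry that uncertainty. A single gene dominated most families in both genotypes. acaca took 91.0%, 95.3% and 97.0% (lowest, median, highest) of the carboxylase TPM in glo2-/- and 82.4%, 95.8% and 98.2% in glo2+/+ livers. dgat2 took 82.2%, 84.2% and 90.9% of the Dgat TPM in glo2-/- and 71.5%, 83.9% and 87.2% in glo2+/+ livers. ACLY (ENSDARG00000099079) held 92.8% to 98.4% of its pair and SLC25A1 (ENSDARG00000076381) 98.5% to 100% of the carrier TPM over all libraries. mid1ip1b held 60.7% to 82.9% of its family.

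In other families the shares varied between libraries to differing degrees. GPAT3 (ENSDARG00000016048) took 59%, 77.6% and 86.2% of the summed TPM of the gpam, gpat3 and gpat4 matches in glo2-/- livers. In glo2+/+ livers it took 74.5%, 80.7% and 84.4%. Of the same sum, gpam took 6.96%, 10.7% and 16.6% in glo2-/- and 4.90%, 6.79% and 10.4% in glo2+/+ livers. The lipins were the most balanced of the pairs compared, with lpin1 at 31.5%, 43.5% and 60.9% in glo2-/- and 33.1%, 51.1% and 60.1% in glo2+/+ livers. scd made up 72.0%, 81.7% and 99.6% of the desaturase pair in glo2-/- and 19.5%, 77.7% and 97.0% in glo2+/+ livers. Among the elongase members, the median shares of their summed TPM in glo2-/- livers were 47.5% for elovl2, 34.4% for elovl5 and 16.1% for elovl6. In glo2+/+ livers they were 50.1% for elovl2, 37.0% for elovl5 and 12% for elovl6. The genotypes were compared for 10 shares, of which 8 were planned and the ACLY and GPAT3 pairs were added after the data were seen. Each test took a single gene of its family: acaca, scd, ELOVL1 (ENSDARG00000099960), DGAT1 (ENSDARG00000054914), gpam, lpin1, mid1ip1a, slc25a1a, ACLY (ENSDARG00000055652) and GPAT3 (ENSDARG00000006491). The shares of mid1ip1a and slc25a1a never exceeded 0.615% and 1.02%. None of the 10 passed an exact two-sided permutation test after Benjamini-Hochberg adjustment (smallest adjusted p = 0.541; the smallest p the test can give is 0.00216). The shares of dgat2, mid1ip1b, SLC25A1 (ENSDARG00000076381), elovl2, elovl5 and elovl6 were not tested. Neither was that of GPAT3 (ENSDARG00000016048) among the matches of gpam, gpat3 and gpat4. The smallest unadjusted value was that of gpam, with a mean share of 10.9% in glo2-/- and 7.54% in glo2+/+ livers (exact permutation p = 0.0844).

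**Figure D3:**
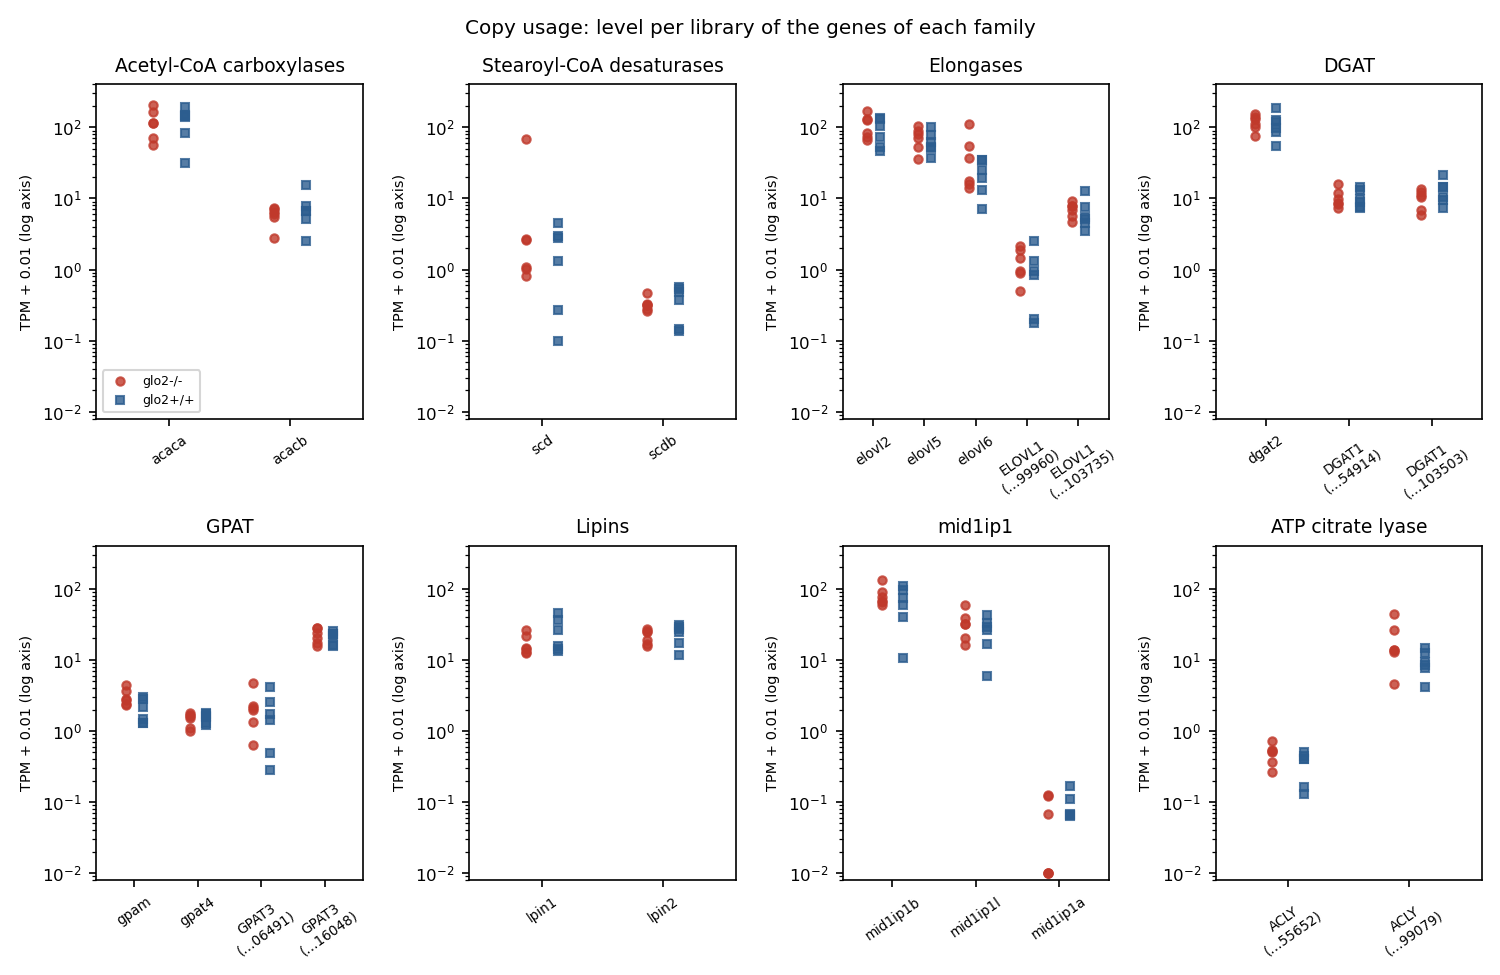
Deposited TPM of member genes of 8 families in each library on a log axis, with a small constant added so that values of 0 can be drawn, for glo2-/- (red circles, left) and glo2+/+ (blue squares, right). A single gene lies far above the others shown for the carboxylases, Dgat, GPAT and ATP citrate lyase, while lpin1 and lpin2 lie level.

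Whether members moved together was examined across the 12 libraries, which share depth scaling and preparation. Of 13 planned relations to fasn, 3 passed by Pearson r. None of them passed by Spearman rho (smallest permutation adjusted p = 0.135). The members and lists were themselves chosen with earlier results of these data known, so the plan was not independent of the data. In all, 99 relations were computed, since all other tested members, and hmgcs1 and a pancreas score as further anchors, were added after the data were seen. All adjusted values are Benjamini-Hochberg over the 99. The expression of acaca followed that of fasn, with Pearson r = 0.837 (permutation adjusted p = 0.0233) and Spearman rho = 0.769 (permutation adjusted p = 0.135). It was 0.757 within glo2-/-, 0.948 within glo2+/+, and 0.674 (permutation p = 0.034) without the 2 libraries farthest from the fasn median, glo2+/+ replicate 3 and glo2-/- replicate 6. Without glo2+/+ replicate 3 alone it was 0.765 and no longer passed after adjustment. For mid1ip1b the relation to fasn was r = 0.851 (permutation adjusted p = 0.044) and rho = 0.664 (permutation adjusted p = 0.2). The call was lost without any of glo2-/- replicates 3 to 6 or glo2+/+ replicates 2 to 6. Over single omissions r was lowest without glo2+/+ replicate 3, at 0.585, and it was 0.555 (permutation p = 0.097) without the farthest 2.

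The gene hmgcs1 encodes the synthase that feeds the mevalonate pathway of cholesterol synthesis. Its relation to fasn was r = 0.755 (permutation adjusted p = 0.044) and rho = 0.608 (permutation adjusted p = 0.279), with 0.634 within glo2-/-, 0.866 within glo2+/+ and 0.729 (permutation p = 0.018) without the farthest 2 libraries. The call was lost on deviations from the genotype means (r = 0.753) and without any of 8 single libraries, with r between 0.632 and 0.789 over all 12 omissions. With ACLY (ENSDARG00000099079) it had r = 0.893 and rho = 0.930 (permutation adjusted p = 0.00495 for both), with 0.952 within glo2-/-, 0.878 within glo2+/+ and 0.838 (permutation p = 0.0004) without the 2 libraries farthest from the hmgcs1 median. Its relation to mid1ip1b had r = 0.744 (permutation adjusted p = 0.044) and rho = 0.692 (permutation adjusted p = 0.163). Without the same 2 libraries its r was 0.531 (permutation p = 0.12).

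The other planned partners of fasn did not pass. For scd r was 0.716 (permutation adjusted p = 0.113) and rho 0.755 (permutation adjusted p = 0.135), for srebf1 r was 0.590 (adjusted p = 0.215 by permutation), and for the ACLY genes it was 0.513 and 0.555. Without the 2 libraries farthest from the fasn median, r was 0.774 for scd, 0.237 for srebf1, and -0.0245 and 0.485 for the ACLY genes. Over all 12 libraries, values below 0 were found for mlxipl at -0.622, me1 at -0.513 and plin2 at -0.447. Without the same 2 libraries these were -0.324, -0.329 and -0.116. The lowest sizes were those of acss2 at 0.365, pck1, a gluconeogenic gene, at 0.352 and elovl6 at 0.156.

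**Figure D4:**
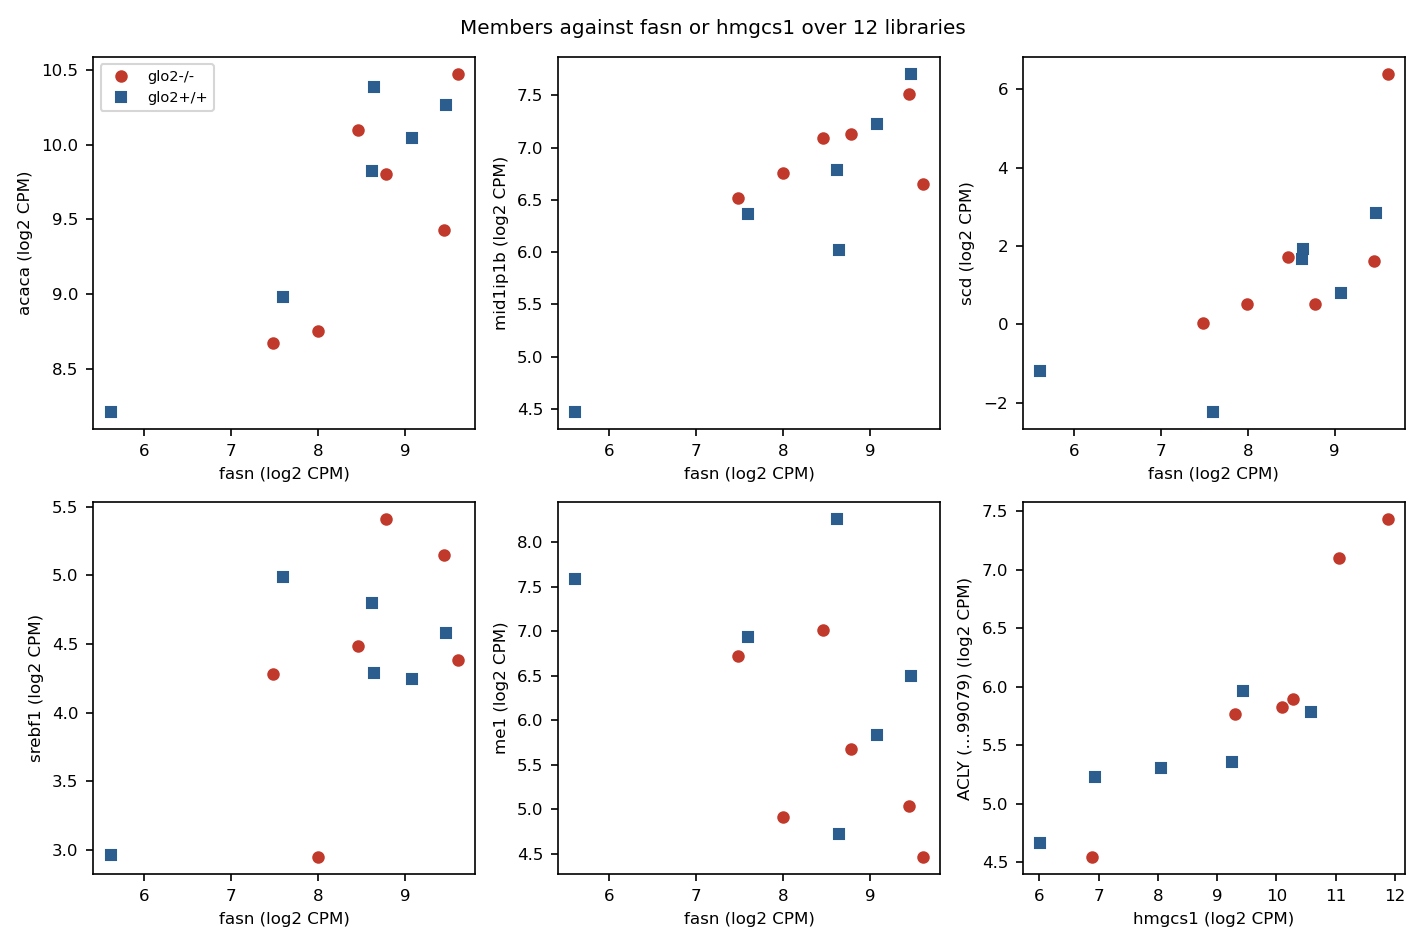
Log2 CPM of acaca, mid1ip1b, scd, srebf1 and me1 against fasn, and of ACLY (ENSDARG00000099079) against hmgcs1, with 1 point per library, glo2-/- as red circles and glo2+/+ as blue squares. acaca and ACLY (ENSDARG00000099079) climb with their anchors in both genotypes, and the library at the far left of the fasn panels is glo2+/+ replicate 3.

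The libraries also differed in exocrine pancreas transcripts. All 12 marker genes found were tested, and their summed level ranged from 49.5 to 7240 TPM in glo2-/- and from 26.9 to 3000 TPM in glo2+/+ livers. None passed between the genotypes, and all 12 had a log2 fold change above 0 (median 1.01), where 47.6% of all tested genes were above 0. These markers were measured in the same libraries, so their signs are not independent of each other. Against the mean log2 CPM of these markers, SLC25A1 (ENSDARG00000076381) had r = -0.826 (permutation adjusted p = 0.0304) and rho = -0.867 (permutation adjusted p = 0.0267), with -0.919 within glo2-/- and -0.783 within glo2+/+. Without the 2 libraries farthest from the median score it was -0.664 (permutation p = 0.036), and the adjusted call was also lost without any of 6 single libraries, at r = -0.756 without glo2+/+ replicate 4. dgat2 had r = -0.766 (permutation adjusted p = 0.044) and rho = -0.755 (permutation adjusted p = 0.135). Its r was -0.526 (permutation p = 0.12) without those libraries. GPAT3 (ENSDARG00000006491) had r = 0.742 and did not pass (permutation adjusted p = 0.071). In bulk samples, fewer cells of a type and less RNA per cell cannot be told apart, and the part of pancreatic tissue in these relations was not tested.

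**Figure D5:**
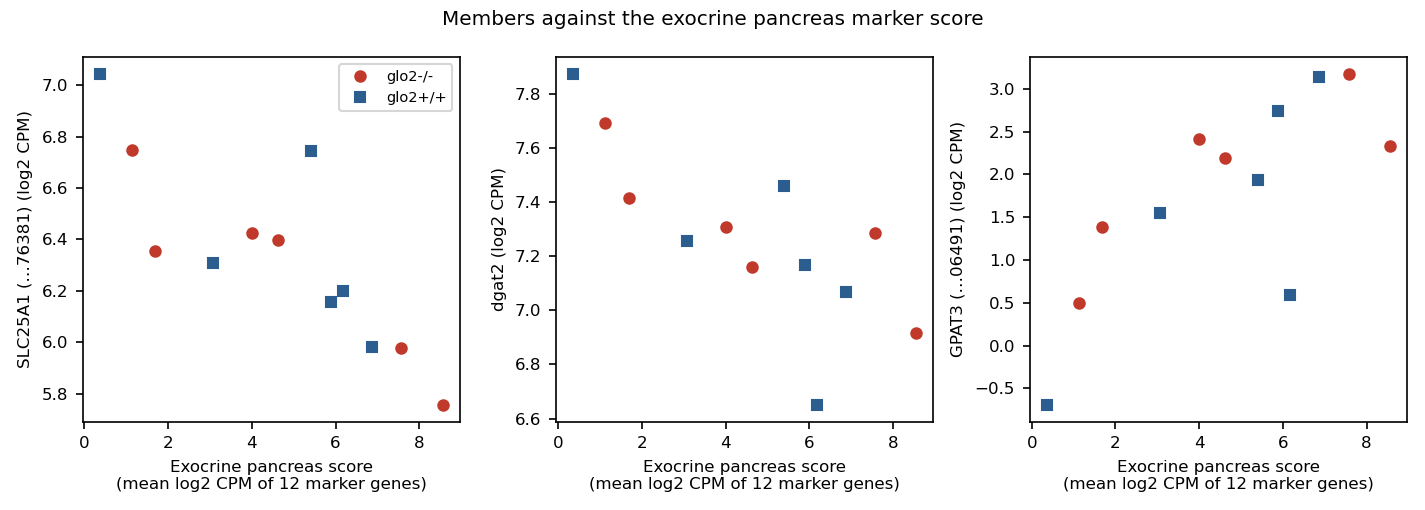
Log2 CPM of SLC25A1 (ENSDARG00000076381), dgat2 and GPAT3 (ENSDARG00000006491) against the mean log2 CPM of 12 exocrine pancreas markers, with 1 point per library, glo2-/- as red circles and glo2+/+ as blue squares. The first pair lie lower, and GPAT3 (ENSDARG00000006491) higher, in libraries with more pancreas transcripts, in both genotypes.

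Markers of fat tissue, which also synthesises triglyceride, were mixed. plin1 had 0 counts in every library, as did lepa, the ADIPOQ genes had 0 to 3 and 0 to 1 counts, and lepb reached at most 0.451 TPM. The others were present: fabp4a at 16.5 to 30.7 TPM in glo2-/- and 13.6 to 51.4 TPM in glo2+/+ livers, cfd at 16.2 to 48.1 TPM in glo2-/- and 17.5 to 34.4 TPM in glo2+/+ livers, and pparg at 13.5 to 55.6 TPM in glo2-/- and 22.3 to 44.5 TPM in glo2+/+ livers. The 8 adipocyte markers found, of which 3 were tested and 2 were at 0 in every library, summed to 65.4 to 103 TPM in glo2-/- and 73.5 to 108 TPM in glo2+/+ livers. The 9 tested macrophage markers all had log2 fold changes below 0 (median -0.47, 0 called, 2 at an unadjusted edgeR p under 0.05). Of all tested genes, 52.4% were below 0 and 5.88% had such a p. The signs of markers measured in the same libraries are not independent of each other. The macrophage markers found summed to 61.5 to 218 TPM in glo2-/- and 124 to 266 TPM in glo2+/+ livers.

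Genes of neighbouring pathways were counted from 9 lists, and no gene of any list passed in edgeR. Among all tested genes 52.4% had a log2 fold change below 0, 47.6% above 0, and 5.88% an unadjusted p under 0.05. Within each list the genes were measured in the same libraries, so the counts of signs are not counts of independent results. Such a p was reached by 1 of 12 fatty acid activation genes, 2 of 18 other glycerolipid enzymes and 1 of 9 NADPH enzymes. For other chain enzymes, lipid droplet and lipolysis, lipoprotein export, and fasting and feeding genes the count was 0 in each list. Of 13 tested genes of SREBP and LXR control, 10 had fold changes below 0 and 3 reached an unadjusted p under 0.05. The 2 with the smallest p were NR1H3, the liver X receptor that induces srebf1 in mammals, at a log2 fold change of -0.78 (SE 0.23), and its partner RXRA (ENSDARG00000057737) at -0.79 (SE 0.24). Of 12 fatty acid activation genes 10 were below 0, with ACSS1, a mitochondrial acetyl-CoA synthetase, averaging 21.2 ± 8.08 CPM in glo2-/- livers and 46.9 ± 17.5 CPM in glo2+/+ livers (SD, n = 6 each; log2 fold change -1.14, SE 0.29, edgeR adjusted p = 0.668) and ACSBG2 at 0.86 (SE 0.62; 0.235 without glo2-/- replicate 5). Of 18 other glycerolipid enzymes 12 were below 0, with PNPLA3 at -0.57 (SE 0.22) and gpd1c at -0.65 (SE 0.29).

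Other chain enzymes, 14 tested with 8 below 0, included MLYCD, which removes malonyl-CoA, at -0.74 (SE 0.36) and OXSM at -0.41 (SE 0.20). NADPH enzymes, 9 tested with 5 below 0, included MTHFD1 (ENSDARG00000040492) at -0.30 (SE 0.12) and PGD, of the pentose phosphate pathway, at 0.62 (SE 0.39). Lipid droplet and lipolysis genes, 12 tested with 5 below 0 and 7 above, had a median of 0.065. They included the lipase PNPLA2 at -0.53 (SE 0.35) and its activator abhd5a at -0.47 (SE 0.37). The level of abhd5a was low, with 13 to 39 counts in glo2-/- and 16 to 62 counts in glo2+/+ libraries. Lipoprotein export, 8 tested with 5 below 0, included apoc2 at -0.45 (SE 0.22) and APOB at -0.26 (SE 0.15). Fasting and feeding genes, 15 tested with 11 below 0, included PKLR, pyruvate kinase of liver, at -0.58 (SE 0.30) and PDK2 (ENSDARG00000020876) at -1.34 (SE 1.00; -0.326 without glo2+/+ replicate 1).

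Of the cholesterol synthesis list, all 19 tested genes had a log2 fold change above 0, with a median of 1.30, and 8 had an unadjusted p under 0.05, though none passed; over all tested genes 47.6% were above 0 and 5.88% had such a p. The genes of this list were measured in the same libraries, so their signs are not independent of each other. Its 2 genes with the smallest p were SC5D at 1.35 (SE 0.45) and IDI1 at 1.42 (SE 0.54). Without glo2-/- replicate 5 they stood at 0.974 and 0.948. The members' median of 0.02 in edgeR stood near that of all tested genes. Among them ACLY (ENSDARG00000099079), whose level followed hmgcs1, had a log2 fold change of 0.95 (edgeR adjusted p = 0.819), and 0.616 without glo2-/- replicate 5. Its highest and second highest libraries, glo2-/- replicates 5 and 4, were the same for hmgcs1. The relation and the fold change are thus not separate results.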

How the data were processed

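RNA from 12 whole-liver libraries, 6 glo2-/- and 6 glo2+/+, was analysed. The authors deposited estimated counts per gene, of which 19.1% were not whole by more than 0.001, and TPM, which is scaled for transcript length and to 1000000 per library. The submitters' processing notes name Trim Galore 0.6.4 for trimming, kallisto 0.4.6 for quantification and the build GRCz11. The step from transcripts to genes is not given in the sources used here. In kallisto's model, reads shared by similar transcripts are divided by likelihood, and no strand setting is given, so values of near-identical copies and of overlapping genes are uncertain.

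The members and lists were chosen with earlier results of these data known. Names were matched to Ensembl identifiers in any case and then without the copy letter; 26 of 249 list entries matched no gene. Estimated counts were rounded and tested on the whole table with edgeR 4.0.16 in R 4.3.3 (filterByExpr, TMM factors, quasi-likelihood test, Benjamini-Hochberg adjustment, threshold 0.05). CPM used TMM factors, and log2 CPM a prior count of 2. Copy shares were compared by exact permutation and relations by 100000 resamples. The text names every member, the 2 genes of each pathway list with the smallest p where none passed, and the targeted gene; FADS3 and the pancreas, adipocyte and relation anchor genes are named outside that rule.

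Alternatives were DESeq2 1.42.0 and its size factors, no filter and a stricter one (1 CPM in 6 libraries), limma 3.58.1 on log2(TPM + 1) or on log2(TPM + 0.1), a block for replicate number, a pancreas covariate and leaving out each library. The edgeR step was tested on simulated data. Among 66 library pairs none agreed within sampling noise (smallest chi-square per degree of freedom 35).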

Additional observations from a re-analysis of the deposited data

Results flagged for a closer look

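A test for a library far from the others of its genotype was run on 86 sets of 6 values, and 5 had one; chance alone gives about 1 in 20, or 4 sets. The log2 CPM of srebf1 was 2.97 in glo2+/+ replicate 3, against 4.24 to 4.98 in the other glo2+/+ libraries. The log2 CPM of scd was 6.39 in glo2-/- replicate 2, against 0.034 to 1.72 in the other glo2-/- libraries. The TPM share of acaca was 91.0% in glo2-/- replicate 6, against 95.1% to 97.0%. The share of mid1ip1a was 0.615% in glo2+/+ replicate 3, against 0.0425% to 0.113%, from at most 3 counts of that gene. The share of slc25a1a was 1.02% in glo2-/- replicate 5, against 0% to 0.299%, from at most 11 counts of that gene.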

How the results depend on the processing

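No member passed the threshold under any of the 20 other settings. DESeq2 called 10 genes higher and 24 lower over the whole table, against 1 and 0 in edgeR; leaving out each library gave 1 to 2 higher and 0 to 1 lower. No pairing of the libraries by replicate number was seen. Correlations of same-numbered libraries ran from -0.28 to 0.205, and 2 of 6 best matched their own number. So few pairs cannot exclude a pairing. With the replicate number as a block, 1 gene was higher and 0 lower. The sign of the log2 fold change held in 22 of 33 members. On log2(TPM + 1) and log2(TPM + 0.1) it turned for acaca (0.032 and 0.034), scdb (-0.041 and -0.046), ELOVL1 (ENSDARG00000103735) (0.171 and 0.205; 0.045 with the replicate block), GPAT3 (ENSDARG00000016048) (0.070 and 0.073) and DGAT1 (ENSDARG00000054914) (0.006 in both); the cause was not tested. Leaving out each library gave -0.029 to 0.381 for srebf1, -0.234 to 0.022 for SLC25A1 (ENSDARG00000076381), -0.320 to 0.043 for acaca, -0.424 to 3.125 for scd, -0.097 to 0.1 for scdb, -0.133 to 0.261 for ELOVL1 (ENSDARG00000103735), -0.095 to 0.603 for GPAT3 (ENSDARG00000006491), -0.092 to 0.074 for GPAT3 (ENSDARG00000016048), -0.081 to 0.021 for gpat4, -0.079 to 0.183 for dgat2 and -0.085 to 0.312 for FADS3. It gave differences in copy share, in percentage points, of -0.911 to 0.226 for DGAT1 (ENSDARG00000054914), -0.858 to 0.268 for ACLY (ENSDARG00000055652) and -0.633 to 3.54 for the 2 GPAT3 genes. Relations to fasn ranged from 0.765 to 0.897 for acaca, 0.585 to 0.910 for mid1ip1b, 0.632 to 0.789 for hmgcs1, 0.696 to 0.757 for scd, -0.094 to 0.537 for acss2 and -0.102 to 0.254 for elovl6, and the adjusted p missed the threshold for acaca without glo2+/+ replicate 3, for mid1ip1b without any of glo2-/- replicates 3 to 6 or glo2+/+ replicates 2 to 6, and for hmgcs1 without any of glo2-/- replicates 2 to 5 or glo2+/+ replicates 3 to 6. For scd it was met without glo2+/+ replicate 3. The relation of hmgcs1 to ACLY (ENSDARG00000099079) passed in each of these settings, while those of mid1ip1b to hmgcs1 and of SLC25A1 (ENSDARG00000076381) and dgat2 to the pancreas score lost the call without several single libraries, and dgat2 also on log2(TPM + 1) (-0.65). As deviations from the genotype means the relation of hmgcs1 to fasn was 0.753 and no longer passed. Members under the count filter, and the lowest libraries of scd and ELOVL1 (ENSDARG00000099960), are limited by depth.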
